A study of Mus musculus with 8 samples.

Results

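The genes followed here encode the proteins that coat, enlarge and form lipid droplets: the perilipins *Plin1*, *Plin2*, *Plin3*, *Plin4* and *Plin5*, the CIDE genes *Cidea*, *Cideb* and *Cidec*, and the droplet assembly genes *Fitm2* and *Bscl2*. They were chosen by name, and all 10 were found among the 33641 genes of the deposited tables. Poly(A) RNA had been sequenced from interscapular brown adipose tissue (BAT) of C57BL/6 mice aged 28 weeks, with 3 libraries labelled control and 5 labelled *Adipo-HuR-/-*. In *Adipo-HuR-/-* mice a floxed allele of *Elavl1*, the gene of the RNA-binding protein HuR, is recombined by an adiponectin-driven Cre (*AdipoQ-Cre*), which acts in adipocytes and not in the other cells of the tissue. The control animals were littermates of mixed genotype (*wt/wt* with Cre, or *flox/flox* or *wt/flox* without it), and the genotype of each animal is not given. Sex and diet of the sequenced mice are not given in the sources used here. Each library is 1 labelled sample, and p-values measure the spread between these samples.

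*Elavl1*, the gene targeted in adipocytes, gives no check of the labels. It was at 49.3 ± 1.28 CPM (SD, n = 3) against 55.0 ± 8.95 CPM (SD, n = 5), with a log2 fold change of 0.16 (95% interval −0.20 to 0.52, standard error 0.162) and an adjusted p of 0.667 in edgeR's quasi-likelihood test (Benjamini-Hochberg adjustment). Its mean was thus no lower under the label *Adipo-HuR-/-*, and the study's legend gives the group sizes the other way round. The *Elavl1* values are RNA of whole tissue, whereas the study examined HuR protein of control and *Adipo-HuR-/-* mice by Western blot. The study reports that many genes lower in *Adipo-HuR-/-* mice act in calcium cycling of the sarcoplasmic reticulum. All 30 listed skeletal muscle genes were likewise lower under that label here. Groups are therefore named by their labels, and every direction rests on these labels.

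The libraries differed in depth, muscle RNA and transcript length. Of those labelled control, A7 held 60622522 counts, A8 51751002 and A12 50673814. Of those labelled *Adipo-HuR-/-*, A24 held 18264754, A25 17558090, A26 67498055, A29 50893173 and A31 58727739, so that both shallow libraries, A24 and A25, carried the same label. RNA of skeletal muscle was present in A7, A8 and A31. The 30 skeletal muscle genes summed to 4843 CPM (A7), 3187 (A8) and 134 (A12), and to 129.8 (A24), 85.5 (A25), 115 (A26), 122 (A29) and 614 (A31). CPM is the count relative to the library total after TMM scaling. *Myh4*, a fast myosin heavy chain and the most abundant gene of that list, had 1048 CPM in A7, 457 in A8 and 106 in A31, and at most 0.113 in the other libraries. The length of the transcripts that took the counts differed too. Its count-weighted mean was 3068 bases (A7), 2144 (A8) and 2641 (A12), and 2133.5 (A24), 2708 (A25), 2554 (A26), 2426 (A29) and 2438 (A31). A8 and A24, one of each label, had the shortest transcripts. Brown adipocyte RNA was abundant in every library: *Ucp1* lay between 4251 CPM in A25 and 11438 in A8.

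Lipid droplets store triglyceride in a core of neutral lipid under a single layer of phospholipid. Perilipins coat that surface and set how far lipases reach the core, CIDE proteins gather where droplets touch and pass lipid from one to the other, and seipin and FIT2 act in the endoplasmic reticulum where droplets form. Brown adipocytes hold many small droplets, whose fatty acids fuel heat production.

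None of the 10 genes was past the threshold of an adjusted p of at most 0.05 and a fold change of at least 1.5, while 105 of 14851 genes tested were (0.707%). In edgeR's quasi-likelihood test 0 of the 10 had an unadjusted p under 0.05, against 17% of all genes tested. The groups did not overlap in CPM for 0 of the 10, against 11.5% of all genes. By other tools, 0 of the 10 were past the threshold in DESeq2's Wald test (5.51% of genes), 0 in edgeR's likelihood ratio test (4.41%) and 0 in limma voom with quality weights (1.06%). In each of these 3 tests 0 of the 10 had an unadjusted p under 0.05, against 18.4%, 16% and 18.6% of genes in the same order. All 10 passed the filter on low counts. Of the 10, 7 had a negative and 3 a positive log2 fold change (label *Adipo-HuR-/-* minus control), with a median log2 fold change of −0.16, where the median of all genes tested was 0.00 and the quartiles were −0.26 and 0.28. With libraries scaled by total counts only, the median of all genes moved to 0.23, and *Plin1*, *Plin2*, *Cidea*, *Cidec* and *Fitm2* changed sign. These misses do not show that the genes were equal. On simulated counts, where 200 genes drawn from all those tested were changed, the same test called very few changes by a factor of 2. As the share of changed genes was set in that simulation, it does not give how often a change in the members would be missed. The 95% interval of each log2 fold change is given with its values. For all members but *Plin4* and *Cideb* it lay within a factor of 2 in either direction. In bulk tissue, fewer cells of a type and less RNA per cell cannot be told apart.

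**Figure D1:**
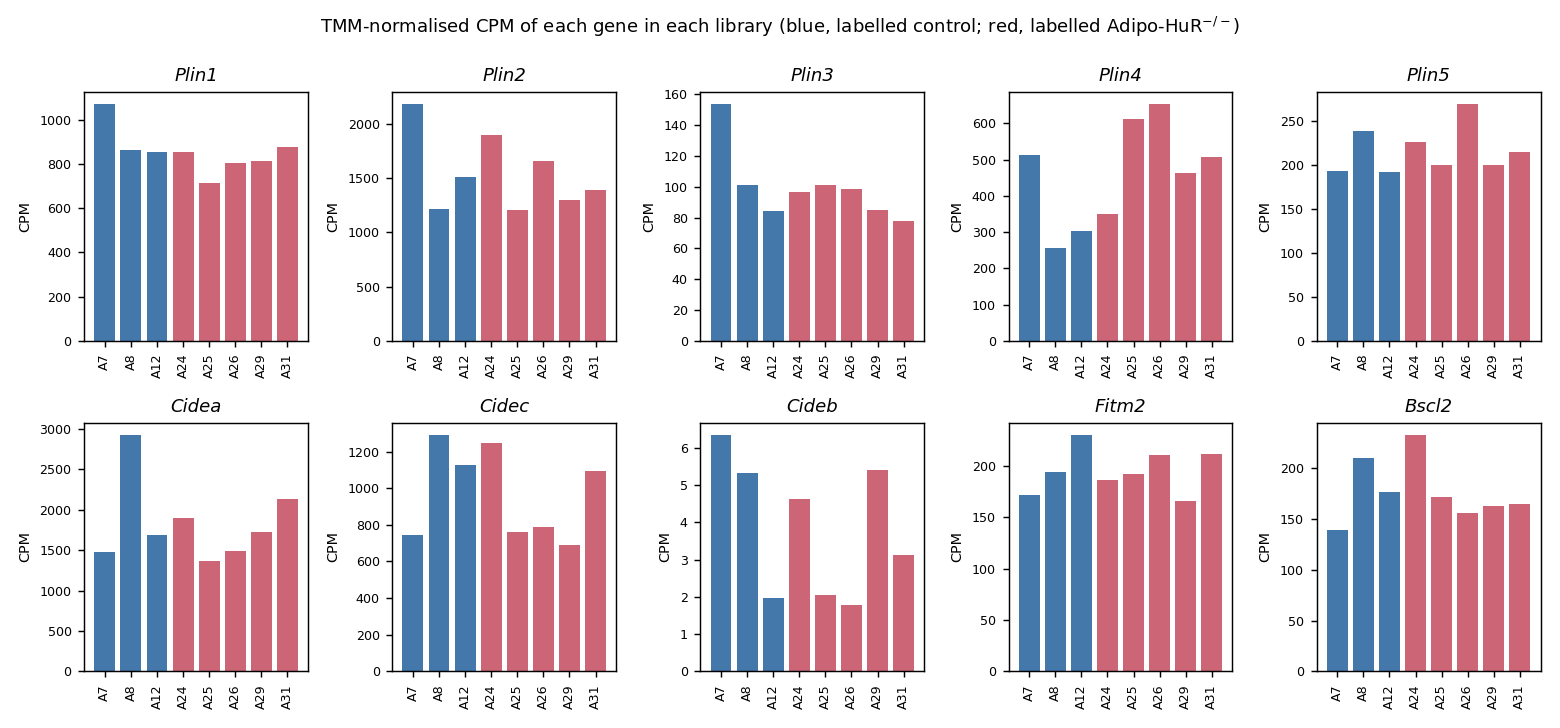
TMM-normalised CPM (y axis, linear, from 0) of each of the 10 genes in each library (x axis); blue bars are the 3 libraries labelled control and red bars the 5 labelled *Adipo-HuR-/-*. The ranges of the groups overlap in each panel.

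*Plin1* encodes perilipin 1, the main coat protein of adipocyte droplets, which holds back lipolysis until it is phosphorylated. Its level was 1072 CPM (A7), 862 (A8) and 854.5 (A12), and 852.5 CPM (A24), 716.5 (A25), 804 (A26), 814.5 (A29) and 877 (A31). A7 was the highest and A25 the lowest, and the groups overlapped, with A8 and A12 inside the range of the others. The groups had 929 ± 123 CPM (SD, n = 3) against 813 ± 61.3 CPM (SD, n = 5). The fit gave a log2 fold change of −0.19 (95% interval −0.56 to 0.17, standard error 0.164) and an adjusted p of 0.596 in edgeR's quasi-likelihood test (Benjamini-Hochberg adjustment). The log2 fold change was −0.080 without A7 and −0.25 without A12.

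*Plin2* encodes perilipin 2, found on droplets of most cell types and degraded when it is not bound to lipid. It was at 2184 CPM (A7), 1219.5 (A8) and 1509 (A12), against 1894 CPM (A24), 1203 (A25), 1657 (A26), 1303 (A29) and 1393 (A31). Both A7 and A24 stood above the other libraries of their groups, so that the groups overlapped. Their means were 1637 ± 495 CPM (SD, n = 3) against 1490.1 ± 282 CPM (SD, n = 5), with a log2 fold change of −0.14 (95% interval −0.67 to 0.39, standard error 0.239) and an adjusted p of 0.820 in edgeR's quasi-likelihood test (Benjamini-Hochberg adjustment). Without A7 the log2 fold change was 0.13, and without A7, A8 and A31, the libraries with muscle RNA, it was 0.00.

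*Plin3* encodes the exchangeable perilipin TIP47, which moves between cytosol and young droplets. Values were 154 CPM (A7), 101 (A8) and 84.1 (A12), and 96.3 CPM (A24), 101 (A25), 98.6 (A26), 84.6 (A29) and 78.0 (A31). A7 alone lay above the rest, and the other control libraries overlapped the 5 libraries of the other label. The group values were 113 ± 36.2 CPM (SD, n = 3) against 91.8 ± 9.995 CPM (SD, n = 5), and the fit gave a log2 fold change of −0.30 (95% interval −0.75 to 0.14, standard error 0.200) and an adjusted p of 0.489 by edgeR's quasi-likelihood test (Benjamini-Hochberg adjustment). Its log2 fold change was −0.02 without A7 and 0.18 without A7, A8 and A31.

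*Plin4* encodes perilipin 4, a coat protein of white and brown adipocytes with a long run of amphipathic repeats. It had 514 CPM (A7), 256 (A8) and 304 (A12), and 351 CPM (A24), 612 (A25), 654 (A26), 462 (A29) and 506 (A31). A8 and A12 were the lowest libraries and A24 came next, whereas A7 lay among the remaining 4, so that the groups overlapped. Group means were 358 ± 137 CPM (SD, n = 3) against 517 ± 121 CPM (SD, n = 5), the largest relative difference upward of the 10 genes. The fit gave a log2 fold change of 0.53 (95% interval −0.08 to 1.14, standard error 0.275) and an adjusted p of 0.361 in edgeR's quasi-likelihood test (Benjamini-Hochberg adjustment). The interval reaches from a small decrease to more than a doubling. *Plin4* kept its positive sign under every alternative of normalization, test, filter and left-out library that was run, with log2 fold changes from 0.34 without A8 to 0.88 without A7, and unadjusted p-values from 0.262 without A8 to 0.00748 without A7. Without A7, A8 and A31 it was 0.77. When the mean transcript length of the libraries was added as a covariate, a fit chosen after seeing the data, the log2 fold change of *Plin4* became 0.74 (with a standard error of 0.154; adjusted p = 0.0517, edgeR), which also missed the threshold. In that fit 1.73% of all genes were past it, and 0 of the 10.

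*Plin5* encodes perilipin 5, which ties droplets to mitochondria in oxidative tissue. Its values were 193 CPM (A7), 238 (A8) and 191 (A12), and 226 CPM (A24), 199 (A25), 269 (A26), 200 (A29) and 214 (A31). A26 was the highest, and A7 and A12 were the lowest by a small margin. The groups overlapped, with 207 ± 26.9 CPM (SD, n = 3) against 222 ± 28.5 CPM (SD, n = 5), and the fit gave a log2 fold change of 0.10 (95% interval −0.27 to 0.46, standard error 0.163) and an adjusted p of 0.814 in edgeR's quasi-likelihood test (Benjamini-Hochberg adjustment). That log2 fold change was 0.018 without A26 and 0.21 without A8.

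*Cidea* encodes a CIDE protein that helps droplets to fuse and is a classic gene of brown adipocytes. Levels were 1472 CPM (A7), 2931 (A8) and 1687 (A12), and 1895 CPM (A24), 1361 (A25), 1492.5 (A26), 1722 (A29) and 2127 (A31). A8 stood far above all others, while A7 and A12 lay within the range of the 5 libraries of the other label, so that the groups overlapped. The fit gave a log2 fold change of −0.24 (95% interval −0.81 to 0.34, standard error 0.259) and an adjusted p of 0.692 in edgeR's quasi-likelihood test (Benjamini-Hochberg adjustment). Without A8 the log2 fold change turned to 0.13.

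*Cidec*, also called Fsp27, is the CIDE gene of adipocytes that makes droplets large. It was at 747 CPM (A7), 1293.5 (A8) and 1124.5 (A12), and at 1245 CPM (A24), 760.4 (A25), 788 (A26), 689 (A29) and 1094 (A31). A8, A12, A24 and A31 were high and the other libraries were low, with both labels in each set. Means were 1055 ± 280.0 CPM (SD, n = 3) against 915 ± 241 CPM (SD, n = 5), and the fit gave a log2 fold change of −0.20 (95% interval −0.77 to 0.37, standard error 0.257) and an adjusted p of 0.737 in edgeR's quasi-likelihood test (Benjamini-Hochberg adjustment). This log2 fold change was −0.024 without A8 and −0.40 without A7.

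*Cideb*, the CIDE gene best known from liver, where it serves lipoprotein assembly, was the scarcest member. It had 6.36 CPM (A7), 5.34 (A8) and 1.96 (A12), and 4.625 CPM (A24), 2.04 (A25), 1.79 (A26), 5.40 (A29) and 3.12 (A31). These values rested on 42.65 estimated counts in A25 to 393 in A7, and A7, A8, A24 and A29 were high while A12, A25 and A26 were low. The group means were 4.56 ± 2.30 CPM (SD, n = 3) against 3.40 ± 1.58 CPM (SD, n = 5), with a log2 fold change of −0.43 (95% interval −1.42 to 0.56, standard error 0.445) and an adjusted p of 0.679 by edgeR's quasi-likelihood test (Benjamini-Hochberg adjustment), the widest interval of the 10. Its log2 fold change was −0.11 without A7 and −0.79 without A12, and its direction turned to 0.81 without A7, A8 and A31, and to 0.32 with the muscle score as a covariate.

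*Fitm2* encodes FIT2, a protein of the endoplasmic reticulum needed for triglyceride to bud into droplets. It was at 171 CPM (A7), 194.5 (A8) and 231 (A12), and 186 CPM (A24), 192 (A25), 211 (A26), 166 (A29) and 212 (A31). A12 was the highest and A29 the lowest, within the narrowest relative spread of the 10 genes. The groups had 199 ± 30.0 CPM (SD, n = 3) against 193 ± 18.9 CPM (SD, n = 5), with a log2 fold change of −0.04 (95% interval −0.39 to 0.31, standard error 0.159) and an adjusted p of 0.923 in edgeR's quasi-likelihood test (Benjamini-Hochberg adjustment). Its direction turned without A12 (0.081) and without A29 (0.0063), and without A7, A8 and A31 the log2 fold change was −0.29.

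*Bscl2* encodes seipin, which forms the ring at which droplets grow and whose loss causes lipodystrophy. Its values were 139 CPM (A7), 211 (A8) and 176 (A12), and 233 CPM (A24), 172 (A25), 156 (A26), 163 (A29) and 165 (A31). A24 stood above the other 4 libraries of its label, and A7 was the lowest of all. The groups had 175 ± 35.9 CPM (SD, n = 3) against 178 ± 31.6 CPM (SD, n = 5). The fit gave a log2 fold change of 0.02 (95% interval −0.41 to 0.45, standard error 0.193) and an adjusted p of 0.969 in edgeR's quasi-likelihood test (Benjamini-Hochberg adjustment). Without A24 the log2 fold change was −0.11, and without A24 and A25 it was −0.13.

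**Figure D2:**
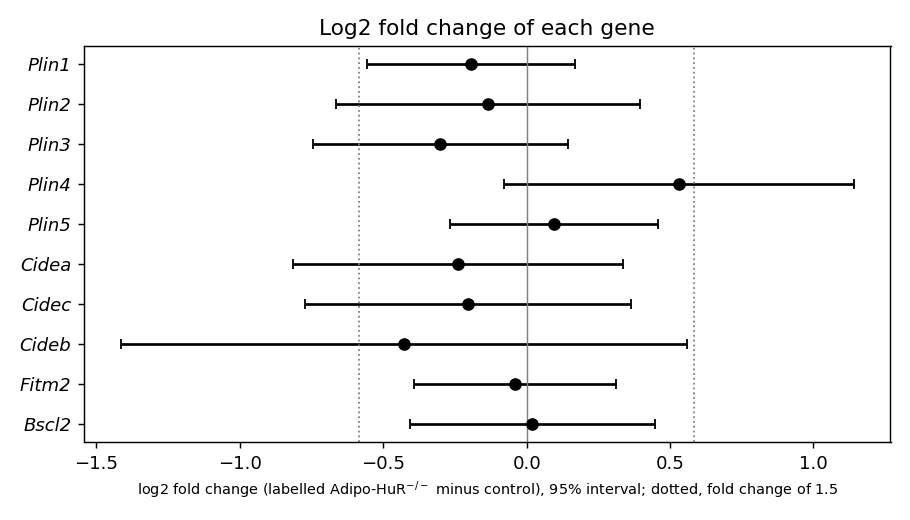
Log2 fold change (x axis, libraries labelled *Adipo-HuR-/-* minus control) of each gene (y axis), with dots for the estimate of edgeR's quasi-likelihood fit and bars for its 95% interval. All 10 intervals cross 0, and *Plin4* lies farthest from it, at 0.53.

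Levels of different genes were compared as TPM, which divides each count by transcript length and does not use TMM scaling. *Cidea* was the most abundant, at 2220.5 ± 318 TPM (SD, n = 8 libraries), followed by *Plin2* at 1295.5 ± 433, *Cidec* at 959 ± 163 and *Plin1* at 734.5 ± 209. Each of the first 3 exceeded the next in 7 of 8 libraries, so that these neighbours were not cleanly ordered: *Plin2* was higher than *Cidea* in A7 alone. *Plin1* was above *Bscl2* in all 8. The middle group comprised *Bscl2* at 165 ± 25.2 TPM, *Plin5* at 151 ± 26.95 and *Plin4* at 116 ± 50.7, where *Bscl2* exceeded *Plin5* in 6 libraries, *Plin5* exceeded *Plin4* in 7 and *Plin4* exceeded *Fitm2* in 6, so that their order was not clean either. Below them came *Fitm2* at 68.85 ± 14.1 TPM, *Plin3* at 38.8 ± 14.35 and *Cideb* at 4.33 ± 2.22. *Cidea* ranked between 31 and 52 among all genes in the libraries, and *Cideb* between 6376 and 9622. Together the 10 genes took between 0.471% (A8) and 0.712% (A7) of all TPM.

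**Figure D3:**
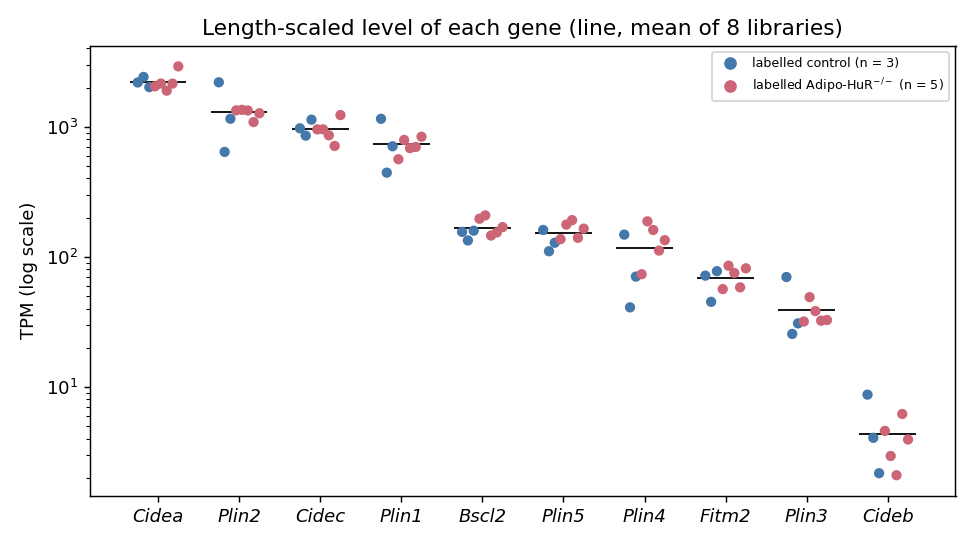
TPM (y axis, log scale) of each gene (x axis, in order of the mean) in each library; blue dots are libraries labelled control, red dots libraries labelled *Adipo-HuR-/-*, and lines are means of 8 libraries. Means run from 2220.5 TPM for *Cidea* to 4.33 TPM for *Cideb*.

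Ratios within a library do not depend on library scaling, and 7 were formed from TPM. Of the 4 ratios over *Plin1* the groups were apart in 1, *Plin4* over *Plin1*, where 10% of all genes tested were apart in their ratio over *Plin1*. They were apart in 0 of the 2 ratios over *Cidec* (7.18% of genes) and in *Fitm2* over *Bscl2* they overlapped (6.42% of genes were apart over *Bscl2*). *Plin4* over *Plin1* was −2.96 on the log2 scale (A7), −3.44 (A8) and −3.33 (A12), and −2.94 (A24), −2.08 (A25), −2.09 (A26), −2.65 (A29) and −2.64 (A31). All 5 libraries labelled *Adipo-HuR-/-* lay above the 3 others, A24 only just above A7, and no test was made. In CPM, which is not divided by transcript length, the groups overlapped in this ratio. There A7 lay above A24, with 514 CPM of *Plin4* to 1072 of *Plin1* in A7 and 351 to 852.5 in A24. The separation was thus seen in TPM only. The part of transcript length in this ratio was not tested. *Plin2* over *Plin1* was 0.72 ± 0.202 (SD, n = 3) against 0.84 ± 0.267 (SD, n = 5), and *Cidea* over *Cidec* 1.17 ± 0.334 against 1.25 ± 0.199; the groups overlapped in both. The share of *Plin4* in the summed TPM of the 5 perilipins overlapped between the groups, with 3.98% in A7 above 3.43% in A24. Among the 5 perilipins *Plin2* and *Plin1* took 50.8% to 62.4% and 26.3% to 35.2% of the summed TPM. *Cidea* and *Cidec* made up nearly all of the CIDE total, with *Cideb* at no more than 0.275%.

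**Figure D4:**
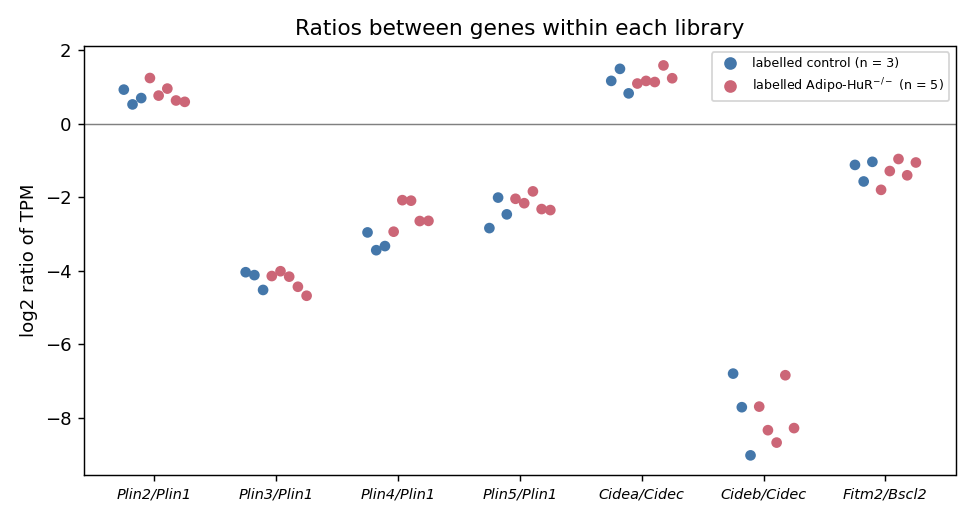
Log2 ratios of TPM between pairs of genes (x axis) in each library (y axis, log2 scale), with blue dots for the 3 libraries labelled control and red dots for the 5 labelled *Adipo-HuR-/-*. For *Plin4* over *Plin1* the red dots lie above the blue ones, at −2.94 or higher, and the 6 other ratios overlap.

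On GRCm38, *Plin4* (chromosome 17, 56100591 to 56109803) and *Plin5* (56111601 to 56117596) are neighbours on the minus strand, 1797 bases apart, and *Plin3* lies 159879 bases from *Plin5* (56277476 to 56292873). *Plin1* is at chromosome 7, 79720218 to 79732903, *Plin2* at chromosome 4, 86648386 to 86670060, and *Cidec* at chromosome 6, 113424634 to 113435760, all on the minus strand. *Cideb* lies at chromosome 14, 55754050 to 55758458, *Fitm2* at chromosome 2, 163466379 to 163472629, *Bscl2* at chromosome 19, 8837467 to 8848683, and *Cidea* on chromosome 18, 67343604 to 67367785. *Cideb* overlaps *Nop9* by 1451 bases, *Bscl2* overlaps *Gng3* by 1728, *Cidea* overlaps *B430212C06Rik* by 500 and *Plin4* overlaps *Hdgfl2* by 17. As strand use in the counting is not given in the sources used here, these totals may hold reads of the partner. *Fitm2* overlaps *2310001K24Rik* by 673 bases and *Bscl2* also overlaps *AC129217.1* by 3671. *Nop9* was at 9.81 ± 0.175 CPM (SD, n = 3) against 12.4 ± 1.38 CPM (SD, n = 5), without overlap of the groups, and *Gng3* at no more than 0.418 CPM in any library.

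The transcripts of these genes carry counts that the authors' processing divided among them, and their shares are uncertain to that extent. Of 38 annotated transcripts, 36 passed the filter, and edgeR's quasi-likelihood test put 0 past the threshold, against 0.00957% of 41808 transcripts tested; 2 of the 36 had an unadjusted p under 0.05, against 8.17% of all transcripts. For 2 of the 36 the groups did not overlap, where 7.5% of all transcripts did not. A short *Cidec* transcript of 376 bases was at 4.07 ± 0.844 CPM (SD, n = 3) against 1.64 ± 0.325 CPM (SD, n = 5), with a log2 fold change of −1.31 (adjusted p = 0.297, edgeR). A *Bscl2* transcript with retained introns was at 1.40 ± 0.228 CPM against 2.83 ± 0.412 CPM (SD, n = 3 and n = 5), a log2 fold change of 1.02 (adjusted p = 0.439, edgeR). *Cidea*, *Plin3* and *Fitm2* had 1 transcript each, and the main *Plin2* transcript held 89.7% to 96.0% of its gene. *Plin4* had a pair of transcripts that share 5734 bases, and the longer of them, by 1 base, held between 45.3% (A24) and 70.6% (A29) of its gene, more than the other in each library but A24.

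Most like each member across the 8 libraries, by Pearson's r of log2 CPM, were the genes named here. They were picked as the 2 highest r among all genes tested, so that a high r comes with the choice. No p is given, as genes can follow the same differences in depth and transcript length between libraries. Some were scarce, with mean CPM of 0.283 for *Fgf7*, 0.746 for *Mpped2*, 0.919 for *Cand2*, 0.924 for *Ildr2* and 1.06 for *Tcp10b*. *Plin2* was most like *Ildr2* (r = 0.991, Spearman's rho = 1.000) and *Plin4* like *Neurl4* (r = 0.988, rho = 0.929). For *Plin5* it was *H1f0* (r = 0.973, rho = 0.952), for *Plin3* *Rufy4* (r = 0.985, rho = 0.929) and for *Plin1* *Mpped2* (r = 0.960, rho = 0.833). The CIDE genes had *Rps27a* for *Cidea* (r = 0.969, rho = 0.905), *Nup35* for *Cidec* (r = 0.971, rho = 0.952) and *Tcp10b* for *Cideb* (r = 0.946, rho = 0.976). *Bscl2* was most like *Rbx1* (r = 0.992, rho = 1.000) and *Fitm2* like *Cmtm4* (r = 0.957, rho = 0.881). Next came *Cand2* (r = 0.949) for *Plin1*, *Mall* (0.975) for *Plin2*, *Fntb* (0.951) for *Plin3*, *Ttyh3* (0.983) for *Plin4* and *Pdk2* (0.957) for *Plin5*. Second for the others were *Gm6472* (0.964) for *Cidea*, *Fgf7* (0.935) for *Cideb*, *Psma1* (0.970) for *Cidec*, *Gabarapl1* (0.956) for *Fitm2* and *Gm10177* (0.984) for *Bscl2*. Between members, the 6 pairs with r beyond 0.7 in either direction are given as measured. The share of all gene pairs beyond that limit is not known here. *Plin4* ran opposite to *Cidec* (r = −0.781, rho = −0.643) and to *Cidea* (r = −0.737, rho = −0.714), and *Cideb* opposite to *Fitm2* (r = −0.777, rho = −0.762). *Cidec* ran with *Bscl2* (r = 0.779, rho = 0.810) and *Cidea* (r = 0.757, rho = 0.643), and *Plin1* with *Plin2* (r = 0.713, rho = 0.405).

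Several members moved with the transcript length of the libraries, a relation seen after the data were examined. Over 8 libraries, log2 CPM and log2 mean length had r = −0.865 for *Bscl2*, −0.752 for *Cidea* and −0.674 for *Cidec*, whose counts fell on transcripts of 1531, 1115 and 1504 bases. *Plin4* and *Plin3*, at 5756 and 3645 bases, had r = 0.564 and 0.538. Length and r did not go together throughout: *Fitm2*, at 3967 bases, had r = −0.065, *Cideb*, at 1212 bases, −0.195 and *Plin2*, at 1817 bases, 0.346. *Plin5* and *Plin1*, at 1986 and 2006 bases, had r = −0.511 and 0.324. Over all genes tested the quartiles of r were −0.382 and 0.440. With mean length as a covariate, the log2 fold changes moved from −0.24 to −0.34 for *Cidea* (unadjusted p from 0.377 to 0.0713), from −0.20 to −0.34 for *Cidec* (0.444 to 0.0989) and from 0.53 to 0.74 for *Plin4* (0.0820 to 0.000982), each in edgeR's quasi-likelihood test. They moved toward 0 for *Plin1* (−0.17), *Plin2* (−0.059), *Plin3* (−0.21) and *Plin5* (0.064), and were −0.53 for *Cideb*, −0.046 for *Fitm2* and −0.075 for *Bscl2*. The part of muscle RNA and of shallow libraries in the results was not tested beyond the muscle covariate and the fits without those libraries.

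HuR binds AU-rich stretches of 3ʹUTRs, and the 3ʹUTR of the main coding transcript of each gene was searched for ATTTA and TATTTAT, of which each TATTTAT holds an ATTTA. The shorter motif was present in 4 of the 10 genes, *Plin1*, *Plin3*, *Cidec* and *Fitm2*, and in 66.1% of 14044 genes tested. TATTTAT was present in *Cidec* alone, and in 27.9% of those genes. 3ʹUTRs ran from 81 bases in *Bscl2* to 3124 in *Fitm2*, around a median of 994 for all genes. The motifs, in capitals, and their surroundings are shown to give the sites by sequence, 5ʹ to 3ʹ on the transcript strand of GRCm38; the copies in *Plin1* begin at bases 338 and 853 of its 3ʹUTR, the copy in *Plin3* at 2032, in *Cidec* at 910, and in *Fitm2* at 1903, 2099, 2155 and 2859.
Plin1 (chr7:79721067-79721095, minus): ctgtggacatgaATTTAtgccataaagta
Plin1 (chr7:79720552-79720580, minus): ctttgtgtgtttATTTAgacggcagctcc
Plin3 (chr17:56277684-56277712, minus): tctgttttcacaATTTAgttttatcagtt
Cidec (chr6:113424636-113424664, minus): tctgcagtaaacTATTTATgctgatacct
Fitm2 (chr2:163467584-163467612, minus): atttctagtttaATTTAatcttttgaggc
Fitm2 (chr2:163467388-163467416, minus): atataataatctATTTAaaatatgtattt
Fitm2 (chr2:163467332-163467360, minus): tgaccaattactATTTAagatgtaagatg
Fitm2 (chr2:163466628-163466656, minus): tctcctgacagtATTTAgagcattctggc
These are matches of letters and do not show that HuR binds there. Promoter windows of 300 bases were matched for 9 of the 10 genes, all but *Cidea* (RefSeq, GRCm38.p6). These were searched for AGGTCA, the letters that many nuclear receptors prefer. Its repeat with 1 base between copies, on either strand, was in 0 of 13 windows of these genes and in 0.0396% of all windows, while AGGTCA, alone or repeated, was in 4 of the 13, of *Plin2*, *Plin5* and *Bscl2*, and in 16.3% of all.

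Other genes of droplets were read from lists chosen with the members. Of 26 droplet proteins, 24 were tested, with 16 lower and 8 higher under the label *Adipo-HuR-/-* and 0 past the threshold; 9 of the 24 had an unadjusted p under 0.05 (17% of all genes), 8 of them lower, and the groups of 4 did not overlap (11.5% of all genes). Of the 8 lower genes, *Fitm1*, the FIT protein of muscle, had 2.36 CPM in A7, 2.405 in A8 and 0.333 in A31, the libraries with muscle RNA, and 0 in the others. With the muscle covariate its log2 fold change went from −4.17 to 1.13 (unadjusted p = 0.911, edgeR). The other 7 stayed lower in that fit, at −0.29 to −0.89. Their unadjusted p ran from 0.00425 to 0.221 (edgeR), so that not all were still under 0.05. *Ldah*, a droplet hydrolase, was at 56.5 CPM (A7), 67.8 (A8) and 70.0 (A12), and 45.6 CPM (A24), 36.6 (A25), 47.5 (A26), 41.2 (A29) and 46.5 (A31). The groups did not overlap, at 64.8 ± 7.22 CPM (SD, n = 3) against 43.5 ± 4.53 CPM (SD, n = 5), with a log2 fold change of −0.57 (95% interval −0.89 to −0.26, standard error 0.144) and an adjusted p of 0.0920 in edgeR's quasi-likelihood test (Benjamini-Hochberg adjustment). *Acsl3*, an acyl-CoA synthetase of growing droplets, had 62.1 ± 13.0 CPM (SD, n = 3) against 38.7 ± 9.36 CPM (SD, n = 5) (log2 fold change −0.68, adjusted p = 0.131, edgeR). *Clstn3*, whose adipocyte form acts with CIDE proteins at droplets, had 212 ± 34.6 CPM (SD, n = 3) against 307 ± 29.4 CPM (SD, n = 5) (log2 fold change 0.54, adjusted p = 0.138, edgeR) without overlap. DESeq2's Wald test without a fold minimum, chosen after seeing the data, called *Ldah*, *Clstn3* and *Snx14* (adjusted p = 0.00870, 0.0274 and 0.0446). At that setting 973 of 14834 genes were called. The length covariate called *Ldah* (adjusted p = 0.0476, edgeR), where 1.73% of all genes were past the threshold. Of the genes of triglyceride synthesis 12 of 18 were higher and 6 lower, with 1 at an unadjusted p under 0.05. *Agpat1* had a log2 fold change of 0.50 (adjusted p = 0.171), *Acsl1* −0.37 (adjusted p = 0.464) and *Gpat4* −0.42 (adjusted p = 0.479, edgeR for each). In triglyceride breakdown 7 of 10 were higher and 0 had an unadjusted p under 0.05. *Aqp7* had 0.35, *Pnpla3* −0.76 and *Abhd6* −0.40 on the log2 scale (adjusted p = 0.378, 0.471 and 0.487, edgeR). Among 16 transcription factors 11 were higher and 5 lower, and *Prdm16*, *Esrrg* and *Cebpa* had log2 fold changes of 0.60, −0.67 and 0.40 (adjusted p = 0.218, 0.298 and 0.338, edgeR). By edgeR's quasi-likelihood test no gene of these 4 lists was past the threshold.

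Markers of other cell types are given as measured. The 30 skeletal muscle genes were all lower under the label *Adipo-HuR-/-* and 3 were past the threshold, *Myh7*, *Myl1* and *Myl2*; this list had the largest difference, 2721 against 213 CPM summed. Endothelial markers, led by *Cdh5*, summed to 597.5 CPM in the libraries labelled control and 676 in the others, and macrophage markers, led by *Lyz2*, to 111.5 and 105. Fibroblast markers, led by *Col3a1*, summed to 442 and 322 CPM, blood markers, led by *Hbb-bs*, to 942 and 734, and hepatocyte markers, led by *Cyp2e1*, to 23.9 and 67.9. *Cyp2e1* alone made up 22.5 and 65.3 CPM of these hepatocyte sums, and 3 of the 7 hepatocyte markers were tested. Adipocyte markers, led by *Fabp4*, summed to 15842 and 13852 CPM, brown adipocyte markers, led by *Ucp1*, to 12012 and 11586, and white adipocyte markers, led by *Lep*, to 65.05 and 53.7. As means of log2 CPM, which weigh each gene alike, the same 3 lists were higher under the label *Adipo-HuR-/-*: 8.83 and 9.10 for adipocytes, 6.88 and 7.23 for brown adipocytes and 2.01 and 2.09 for white adipocytes. These differences rest in part on single libraries. A7 was lowest for adipocytes (8.34) and brown adipocytes (6.26), where A8 and A12 lay within the range of the other label. A31 was highest for white adipocytes (2.54), where the other 4 libraries of its label lay between 1.91 and 2.04. Of the 12 brown adipocyte markers 8 were higher and 4 lower, and of the 7 adipocyte markers 2 were higher and 5 lower; of the 6 white adipocyte markers tested 2 were higher and 4 lower, with a median log2 fold change of −0.32. The part of any of these cell types in the levels of the 10 genes was not tested, apart from the muscle fits above. No marker gene was under 3 counts in every library.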

How the data were processed

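For 8 BAT libraries the deposited values are estimated counts of transcripts, not normalized, on GRCm38. The study's methods give poly(A) libraries and CLC Genomics Workbench, and the program that made the estimated counts is not given in the sources used here. From these files, counts were summed per gene symbol and rounded. Genes were kept by edgeR's filterByExpr, scaled by TMM and tested between labels by the quasi-likelihood F-test on all 14851 genes kept, with Benjamini-Hochberg adjustment, in edgeR 4.0.16 (R 4.3.3), beside DESeq2 1.42.0 and limma 3.58.1; tables and figures were made in Python 3.11.15 (pandas 2.3.3, numpy 2.4.6, matplotlib 3.10.9, scipy 1.17.1). The fit was tested on simulated data with 200 genes or transcripts changed. There it called most genes changed by a factor of 4, very few changed by a factor of 2 and very few transcripts changed by a factor of 4. Standard errors are the log2 fold change over the root of F. TPM was computed from transcript lengths of GENCODE M21. Log2 CPM used a prior count of 2. Totals ran from 17558090 to 67498055 counts, and intervals cover the fitted spread of the 8 libraries. The members and lists were chosen with earlier results of these data known. Named are the 10 members, *Elavl1* and *Ucp1*, list genes past the threshold, the 3 genes of smallest p in each droplet list, the 2 genes most like each member, and the most abundant marker of each list; *Snx14*, *Fitm1*, *Nop9* and *Gng3*, were named, and the limit for pairs of members was set, after their values were seen. Alternatives were DESeq2's size factors, total counts, DESeq2's Wald test, the likelihood ratio test, limma voom with quality weights and other filters. Further ones were the transcript with the highest total, a muscle covariate, sets of libraries left out, and each library in turn. The length covariate and DESeq2 with adjusted p alone were chosen after seeing the data.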

Additional observations from a re-analysis of the deposited data

Results flagged for a closer look

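In 12 groups of 5 libraries, 1 per gene for the 10 members, *Elavl1* and *Ucp1*, the library farthest from the others was compared with the range of its group. *Bscl2* was far from the rest in A24, at 233 CPM, where the other libraries labelled *Adipo-HuR-/-* lay between 156 and 172 CPM. Its gap to the nearest of them was 0.798 of the range, above Dixon's critical value of 0.71 for 5 libraries. Chance marks about 1 in 20 such groups. A24 was also the library with the shortest mean transcript length, 2133.5 bases, and its part in the value was not tested.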

How the results depend on the processing

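The counts of members and of member transcripts past the threshold were 0 under every alternative run, as was that of droplet pathway genes, save 1 with the length covariate and 3 with DESeq2's Wald test and adjusted p alone, both chosen after seeing the data. The number of all genes past the threshold, 105, became 818 in DESeq2's Wald test, 973 there with adjusted p alone, 655 in the likelihood ratio test, 257 with the length covariate, 16 with the top transcript, 15 with the muscle covariate, 4 without A7, A8 and A31 (the lone control library was then assumed to vary like the other group) and 5 without A24 and A25. With each library left out it ran from 10 (without A26) to 190 (without A12). Directions turned as follows. With total counts only, log2 fold changes were 0.021 for *Plin1*, 0.042 for *Plin2*, 0.042 for *Cidea*, 0.052 for *Cidec* and 0.20 for *Fitm2*; total counts also moved the median of all genes by 0.23. Without A7, A8 and A31 they were 0.00 for *Plin2* (0.0046 before rounding), 0.18 for *Plin3* and 0.81 for *Cideb*. With the muscle covariate they were 0.32 for *Cideb* and −0.039 for *Bscl2*, and *Bscl2* was −0.13 without A24 and A25 and −0.075 with the length covariate. The members that did not turn with the muscle covariate changed in size. They were −0.078 for *Plin1*, −0.073 for *Plin2*, −0.099 for *Plin3*, 0.69 for *Plin4* and 0.14 for *Plin5*. *Cidea* was at −0.0096, *Cidec* at −0.19 and *Fitm2* at −0.11 in that fit. Single libraries left out gave ranges of −0.30 to 0.13 for *Plin2*, −0.43 to 0.13 for *Cidea*, −0.14 to 0.081 for *Fitm2* and −0.12 to 0.18 for *Bscl2*. The other members kept their direction with each library left out but not their size: −0.25 (without A12) to −0.080 (A7) for *Plin1*, −0.47 (A12) to −0.017 (A7) for *Plin3*, 0.34 (A8) to 0.88 (A7) for *Plin4*, 0.018 (A26) to 0.21 (A8) for *Plin5*, −0.79 (A12) to −0.11 (A7) for *Cideb* and −0.40 (A7) to −0.024 (A8) for *Cidec*; *Plin4* and *Plin5* kept it under all 20 alternatives. The causes were not tested. None of these values passed the threshold. On simulated counts, where 200 genes drawn from all those tested were changed, very few changes by a factor of 2, which is larger, did. Depth limited *Cideb* most, at 42.65 counts in A25. The group sizes in the study's legend are the reverse of the labels, which cannot be settled here. The study states a decrease of calcium cycling genes in *Adipo-HuR-/-* mice, and all 30 skeletal muscle genes had lower means under that label. Their RNA was high in A7 and A8, while A12, at 134 CPM summed, lay within the range of the other label. That the directions match does not show which animals carried the deletion.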
